A study of Homo sapiens with 10 samples.

Results

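The valine tRNA rows are the entries of 10 iCLIP tRNA tables that belong to transfer RNAs charged with valine. The rule takes every row whose name starts with tRNA.Val. and uses no measured value, though valine was picked with earlier results of these data known. There were 37 such rows among 631 tRNA rows: 11 with the anticodon AAC, 19 with CAC and 7 with TAC. A row stands for a gene copy. Of the 37 rows, 30 carried a copy number and 7 were named after a chromosome. By copy number, 27 rows matched a valine tRNA gene and 1 a pseudogene among the genes RefSeq lists for GRCh38.p14, and the other 9 kept the name used in the tables.

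All libraries came from cells without their own PUS7. In HEK 293T, a transformed embryonic kidney line, 3 libraries were from PUS7KO+FlagPUS7 cells, which carry a FLAG-tagged PUS7 in the knockout background, and 3 from PUS7KO cells without it. In H9, a human embryonic stem cell line, there were 2 of each. All 10 libraries were pulled down with anti-FLAG beads, so the knockout libraries show what the beads bring down with no tagged protein. The sources used here do not give how the tagged gene was delivered, nor whether the knockout is 1 clone. The 293T cells were at passages 20 to 25 and the H9 cells at 40 to 45, and no unmodified cells were among the samples.

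Valine tRNAs carry valine to the ribosome and read the codons that start with GT. The AAC anticodon is modified at its first base to inosine, which lets it read several of these codons, while CAC reads GTG and TAC reads GTA best. PUS7 is a pseudouridine synthase: it turns uridine into pseudouridine in tRNAs and in some mRNAs, at sites it recognises by a short sequence and, in tRNA, also by structure. iCLIP joins a protein to the RNA it touches in living cells with ultraviolet light, and the RNA that comes down with the protein is then sequenced. The series title concerns fragments cut from tRNAs in stem cells, and the study groups valine with alanine and cysteine tRNAs.

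The deposited tRNA values were level numbers, the ranks of text values in alphabetical order, and not read counts. In each of the 10 tables, every whole number from 1 to the highest level was present. The number of levels was 335 to 414 with FLAG-PUS7 and 6 to 102 in the knockout. A row was therefore read as detected when it lay above the lowest run of levels, and as not detected otherwise. How many reads a tRNA row had, and how deeply a library was sequenced, is unknown. In the first H9 knockout table no tRNA row lay above the lowest level for the width of its text, and this table was read as 0 detected rows. Whether that library lacked tRNA reads or its table was left unfilled cannot be told apart, so the family differences and the effects in H9 are given with and without it. Its levels sorted the rows into width classes, numbered from 1 for the narrowest text. Of the 381 levels that more than 1 row occupied in the 9 other tables, 0 combined different classes. Of all 631 rows, FLAG-PUS7 libraries detected 458 to 479, and the other knockout libraries 133 to 232.

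Nearly all valine rows were found with FLAG-PUS7 in both lines, and a variable part of them in the knockout. The 293T FLAG-PUS7 libraries each detected 33 of the 37 valine rows, while the 293T knockout libraries detected 20, 3 and 11. In H9, 32 and 31 valine rows were found with FLAG-PUS7, against 0 and 21 in the knockout. The groups did not overlap in either line. As a share of the 37 rows, this was 89.2% ± 0 with FLAG-PUS7 and 30.6% ± 23.0 in the knockout in 293T (SD, n = 3 each). In H9 it was 85.1% ± 1.91 with FLAG-PUS7 and 28.4% ± 40.1 in the knockout (SD, n = 2 each). With both lines weighted equally, the difference was 57.7 percentage points. It was 43.5 points once the first H9 knockout library was left out. No p-value is given for this summed share, because the rows were taken as a group with earlier results of these data known. For comparison, of the 553 rows that are neither valine nor carry an nm or nmt prefix, 78.4% ± 2.00 were detected with FLAG-PUS7 and 28.2% ± 8.86 in the knockout in 293T (SD, n = 3 each). In H9 the same rows had 79.6% ± 0.256 with FLAG-PUS7 and 19.1% ± 27.0 in the knockout (SD, n = 2 each). For these rows, too, the groups did not overlap in either line.

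All 27 rows matched to a RefSeq valine tRNA gene were detected in each of the 5 FLAG-PUS7 libraries. In the knockout libraries, 17, 2 and 10 of them were detected in 293T, and 0 and 20 in H9. The valine rows that FLAG-PUS7 libraries missed were thus the pseudogene row and rows with no RefSeq match. For comparison, of the 408 rows of any tRNA matched to a RefSeq tRNA gene, valine included, 383 were detected in all 5 FLAG-PUS7 libraries. Detection in all FLAG-PUS7 libraries was therefore what most matched rows of any tRNA showed.

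**Figure D1:**
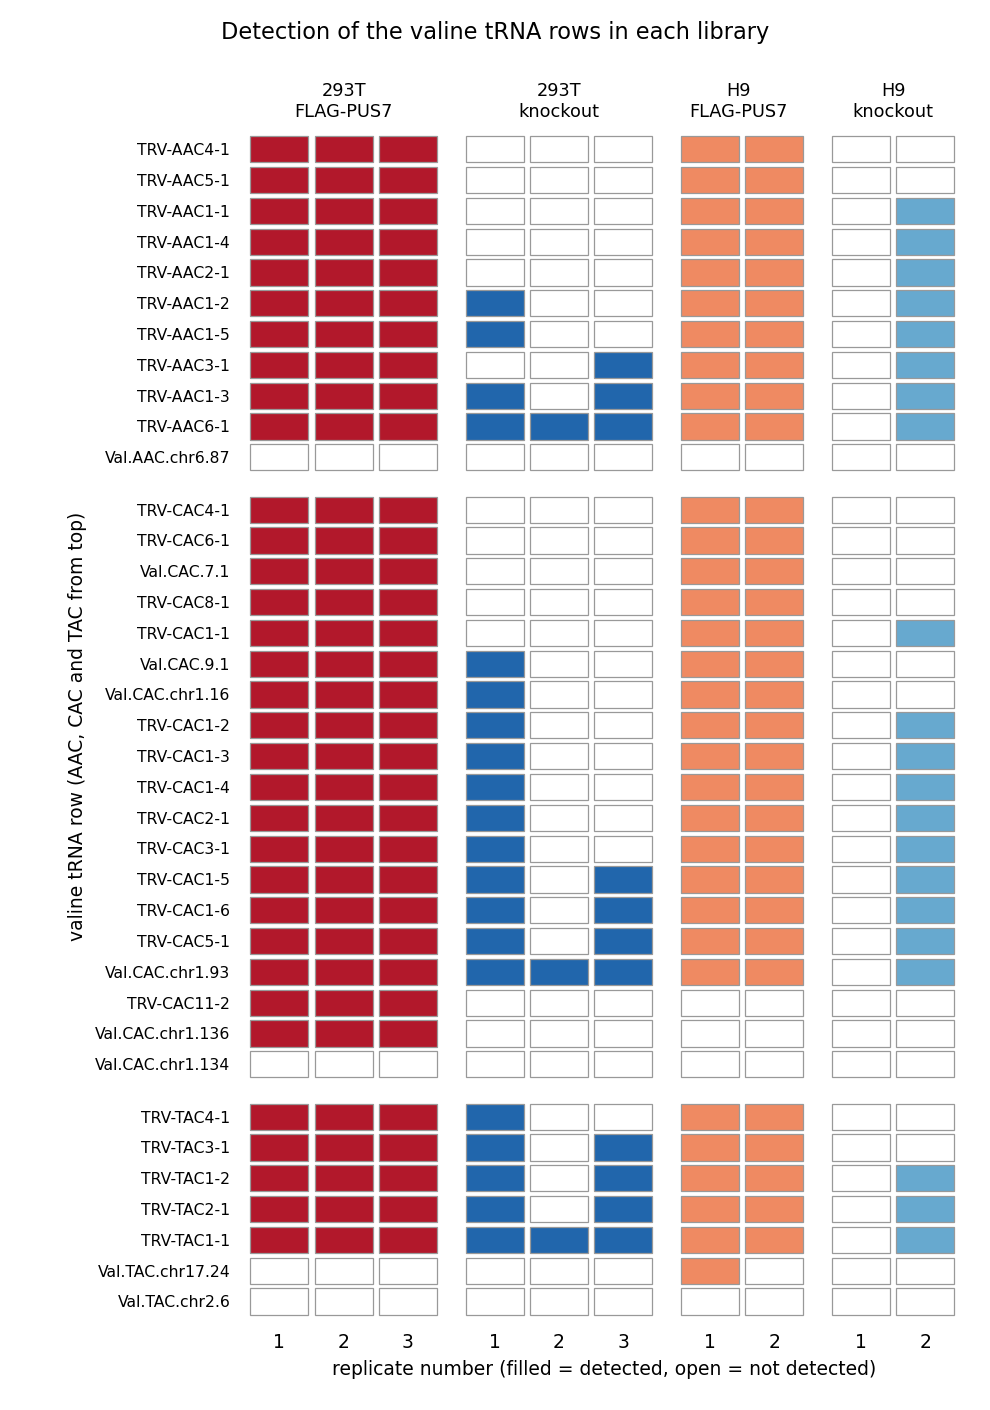
Each line is 1 of the 37 valine tRNA rows, grouped by anticodon, and each column is 1 library, by group and replicate number. Filled cells mark detection and open cells no detection. The FLAG-PUS7 columns are filled for 31 rows, and the knockout columns are filled unevenly, with 3 rows in the second 293T knockout library and 21 in the second H9 knockout library.

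By anticodon, Val-AAC and Val-CAC rose in the share of rows detected, and Val-TAC did not pass the test. Each family was tested across both lines with an exact two-sided permutation test over 120 assignments of the FLAG-PUS7 label within lines, whose smallest possible p is 0.0167. Benjamini-Hochberg adjustment ran over all 57 anticodon families with a detected row, of which 78.9% were called higher with FLAG-PUS7. A call of a valine family is therefore what most families showed. The libraries of 293T by themselves could reach a p of 0.1 at the least, and those of H9 0.333, so no call was possible in a single line.

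Val-AAC, the family with the inosine anticodon, had 10 of 11 rows detected in all 5 FLAG-PUS7 libraries. The knockout libraries held 4, 1 and 3 of its rows in 293T, and 0 and 8 in H9. The lowest FLAG-PUS7 share, 90.9%, was above the highest knockout share, 72.7%. Such a gap was not particular to valine. Cys-GCA had 72.2% and 2.78% by the same measures, while Ser-GCT had 100% for both. The difference was 60.6 points (exact permutation test, adjusted p = 0.0221). Leaving out the first H9 knockout library gave 42.4 points (exact permutation test, adjusted p = 0.0232). Val-AAC was highest among the knockout libraries in the second H9 one, and lowest, apart from the empty table, in the second 293T one.

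Val-CAC had 18 of 19 rows detected in each 293T FLAG-PUS7 library, against 11, 1 and 4 rows in the 293T knockout libraries. In H9, it had 16 rows in both FLAG-PUS7 libraries, against 0 and 10 in the knockout libraries. No knockout library came above 57.9%, and no FLAG-PUS7 library was under 84.2%. The difference was 62.3 points (exact permutation test, adjusted p = 0.0221). It became 49.1 points when the first H9 knockout library was left out (exact permutation test, adjusted p = 0.0232).

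Val-TAC had 5 of 7 rows in each 293T FLAG-PUS7 library, against 5, 1 and 4 rows in the 293T knockout libraries. In H9, it had 6 and 5 rows with FLAG-PUS7 and 0 and 3 rows in the knockout. The first 293T knockout library thus equalled the FLAG-PUS7 libraries of its line at 71.4%, and the groups overlapped. The difference of 40.5 points did not pass the exact permutation test (adjusted p = 0.0776). Leaving out the first 293T knockout library gave 46.4 points, which passed (adjusted p = 0.0211 by the exact permutation test). Leaving out the second H9 FLAG-PUS7 library gave 44.0 points, and leaving out the first H9 knockout library 29.8 points, neither of which passed. The median difference over the 57 families was 52.5 points, above Val-TAC and under the other valine families. The valine families were not tested against each other. The calls of Val-AAC and Val-CAC were lost without the first H9 FLAG-PUS7 library (adjusted p = 0.0566 by the exact permutation test) and without the second (0.0594), with differences still at 60.6 and 62.3 points.

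**Figure D2:**
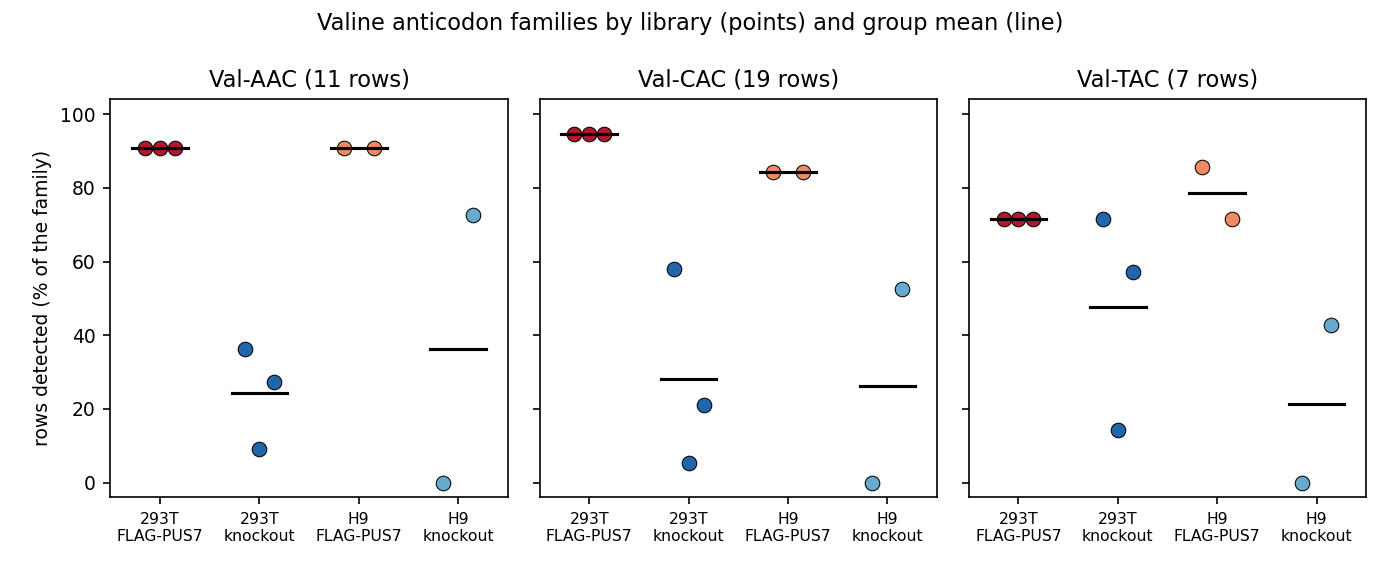
The vertical axis gives the percentage of each valine family's rows detected, with a point for every library and a line at the group mean. For Val-AAC and Val-CAC every FLAG-PUS7 point lies above all knockout points, and for Val-TAC the first 293T knockout library reaches 71.4%, as high as the FLAG-PUS7 libraries of that line.

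Copy by copy, all 5 FLAG-PUS7 libraries detected the same 31 of the 37 valine rows. Among those, 6 were absent from every knockout library, 7 were in 1, 9 in 2, 6 in 3 and 3 in all 4 knockout libraries that held any tRNA row. When the first level above the lowest was read as not detected, TRV-TAC4-1 left the 31 and differed by 75 points instead of 83.3. The 6 rows in no knockout library make up 19.4% of the 31, beside 30.1% of the 425 rows of any tRNA found in all FLAG-PUS7 libraries. The valine share is below that background. In the exact permutation test for single rows, 34 valine rows could be tested, all 34 differed toward FLAG-PUS7, and 0 passed after adjustment over 513 rows (lowest adjusted p = 0.0668). Over all 513 rows, 0% were called at the adjusted threshold and 25% had an unadjusted p under 0.05. Among valine rows, 6 had an unadjusted p under 0.05. With the lines pooled, 6 valine rows passed after adjustment by the exact permutation test, where 25% of all 513 rows did, and 13 had an unadjusted p under 0.05, where 47% of all rows did. The median difference of the tested valine rows was 58.3 points, and that of all 513 tested rows 66.7 points. A row detected in few libraries could not have differed far, and one found in a FLAG-PUS7 library alone had to differ, so these counts describe the rows and support nothing further.

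The 6 rows seen in every FLAG-PUS7 library and no knockout library were 2 of Val-AAC and 4 of Val-CAC. The Val-AAC rows were TRV-AAC4-1 (chromosome 6, 27681106 to 27681178) and TRV-AAC5-1 (chromosome 6, 27235509 to 27235581). TRV-CAC6-1 (chromosome 6, 27206088 to 27206160) lies in the same part of that chromosome. TRV-CAC4-1 (chromosome 1, 143803994 to 143804066) and TRV-CAC8-1 (chromosome 1, 143800041 to 143800111) lie close to each other. The last of the 6 was Val.CAC.7.1, which has no match in the gene table used here. Each of them differed by 100 points (exact permutation test, p = 0.0167 unadjusted and 0.0668 adjusted). They still did when the first level above the lowest was read as not detected, and Val.CAC.9.1 then differed by 100 points too. Of the 6 rows, all but TRV-CAC4-1 belonged to the 2 narrowest width classes, classes 1 and 2. Of all rows of any tRNA, the 4 knockout libraries with tRNA rows detected 0.403% to 1.21% in class 1 and 8.46% to 33.1% in class 2.

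At the other end, 3 rows were found in every FLAG-PUS7 library and also in the 4 knockout libraries that held tRNA rows. These were TRV-AAC6-1 (chromosome 6, 28735429 to 28735500), TRV-TAC1-1 (chromosome 11, 59550629 to 59550701) and the row Val.CAC.chr1.93. For these copies detection cannot tell FLAG-PUS7 from the mock pull-down in 4 of 5 knockout libraries. They were also the only valine rows found in the second 293T knockout library. Each of the 3 differed by 25 points. They make up 9.68% of the 31 valine rows found in all FLAG-PUS7 libraries, beside 16.7% of the 425 such rows of any tRNA. When the first level above the lowest was also read as not detected, TRV-AAC6-1 differed by 58.3 points, TRV-TAC1-1 by 41.7 and Val.CAC.chr1.93 by 75. Under that reading none of the 3 stayed in all 4 of these knockout libraries.

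The remaining 22 of the 31 rows were in 1 to 3 knockout libraries. TRV-AAC1-1 (chromosome 3, 169772230 to 169772302), TRV-AAC1-4, TRV-AAC2-1 and TRV-CAC1-1 were in the second H9 knockout library and in no 293T knockout library. Val.CAC.9.1, Val.CAC.chr1.16 and TRV-TAC4-1 (chromosome 6, 27290626 to 27290698) were in the first 293T knockout library and no other. TRV-TAC1-2 (chromosome X, 18674909 to 18674981) and TRV-TAC2-1 (chromosome 11, 59550987 to 59551059) were in 293T knockout libraries 1 and 3 and in the second H9 knockout library. The first 293T and the second H9 knockout libraries, which held the most valine rows, shared 16 rows of the 25 that either detected.

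A further 3 rows were detected in some but not all FLAG-PUS7 libraries, 8.11% of the 37 valine rows beside 13.9% of all 631 rows. The pseudogene TRV-CAC11-2 (chromosome 1, 16860198 to 16860270) and the row Val.CAC.chr1.136 were in all 3 FLAG-PUS7 libraries of 293T, in none of H9 and in no knockout library. The row Val.TAC.chr17.24 was in the first H9 FLAG-PUS7 library alone. All 3 were in the narrowest width class. Val.AAC.chr6.87, Val.CAC.chr1.134 and Val.TAC.chr2.6 were detected in no library, 8.11% of the 37 valine rows beside 18.7% of all 631 rows. All 6 of these rows are a pseudogene or chromosome-named, whereas the chromosome-named rows Val.CAC.chr1.16 and Val.CAC.chr1.93 were in every FLAG-PUS7 library.

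Copies of a tRNA gene can share their mature sequence, and reads from it cannot then be told apart. In gene names such as TRV-CAC1-2, the first number marks a group of copies with the same mature sequence and the second the copy. Rows that share a group number are therefore not independent of each other. Joined by that number, the 37 rows formed 27 groups, of which the 293T libraries detected 23, 23 and 23 with FLAG-PUS7 and 13, 3 and 9 in the knockout. In H9 the counts were 22 and 21 with FLAG-PUS7 and 0 and 11 in the knockout. With groups in place of rows, Val-AAC differed by 57.1 points and Val-CAC by 63.7 points (exact permutation test, adjusted p = 0.0226 for both), and Val-TAC by 40.3 points (adjusted p = 0.0792). Leaving out the first H9 knockout library as well gave 42.9 points for Val-AAC and 54.8 for Val-CAC (exact permutation test, adjusted p = 0.0238 for both), and 31.9 points for Val-TAC (adjusted p = 0.0809).

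The 5 TRV-AAC1 copies, on chromosomes 3, 5 and 6, were all detected in each FLAG-PUS7 library and, in the knockouts, 3, 0 and 1 of them in 293T and 0 and 5 in H9. The 6 TRV-CAC1 copies were likewise complete in the FLAG-PUS7 libraries, with 5, 0 and 2 in the 293T and 0 and 6 in the H9 knockouts. Although members of such a group share their mature sequence, the deposited values differed from copy to copy. The 5 TRV-AAC1 rows had 5 distinct levels in each FLAG-PUS7 library, and the 6 TRV-CAC1 rows had 6 in 4 of these libraries and 5 in the remaining one, the 293T replicate 3. Their levels nevertheless sorted close together, which means that their texts began alike. The TRV-CAC1 rows spanned 5.67%, 9.71% and 3.58% of all levels in the 293T FLAG-PUS7 tables, and 2.67% and 3.62% in the H9 ones. The TRV-AAC1 rows spanned 9.35%, 5% and 6.27% of the levels with FLAG-PUS7 in 293T, and 2.43% and 3.38% in H9. For 18 groups of other tRNAs with at least 5 copies, all detected, the median span was 5.63% and the range 1.69% to 97.0%. The row Val.CAC.chr1.93 lay inside the span of the TRV-CAC1 rows in all 5 FLAG-PUS7 libraries. The sources used here do not say how the authors shared reads between copies.

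By place in the genome, the 28 matched rows lie on 8 chromosomes. On chromosome 5, 8 of them lie between 181097070 and 181222467. All 8 were detected in every FLAG-PUS7 library, and each was in at least 1 knockout library. On chromosome 6, 9 rows lie between 26538054 and 28735500, and 3 of them were in no knockout library. Chromosome 1 held 5 rows, of which 4 were in every FLAG-PUS7 library and 2 of these in no knockout library. The numbers are too small to compare chromosomes, and copies of the same group lie on different ones. Most of these genes overlap no other annotated gene on either strand. The exceptions were TRV-CAC3-1 in the long noncoding RNA gene LOC105372250, TRV-TAC1-1 and TRV-TAC2-1 in LOC102723575, and TRV-CAC5-1 in the transcribed pseudogene PDE4DIPP4.

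Whether a valine row appeared in a knockout library went with its width class. The class was read from the same deposited values as detection, so it is not a trait independent of detection. Detection with FLAG-PUS7 went with it too. Of all rows of any tRNA, the FLAG-PUS7 libraries detected 31.0% to 39.5% in class 1 and 100% in classes 3 and 4. Of the 37 valine rows, 9 were in class 1, 4 in class 2, 19 in class 3 and 5 in class 4. In class 3, which holds TRV-AAC1 and TRV-CAC1, the 293T knockout libraries detected 13, 1 and 6 of the 19 valine rows, and the second H9 knockout library 16. In class 4, the same libraries detected 5, 2, 4 and 5 of 5 rows. No knockout library detected more than 1 valine row of class 1, nor more than 1 of class 2. The 3 class 4 rows of Val-TAC are TRV-TAC1-1, TRV-TAC1-2 and TRV-TAC2-1. Class 4 thus holds 3 of 7 Val-TAC rows, against 1 of 11 Val-AAC and 1 of 19 Val-CAC rows. The part that width class plays in the missed call of Val-TAC was not tested.

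Set beside all other rows of class 3, the valine rows did not stand on 1 side. In the first 293T knockout library 68.4% of the valine rows and 73.5% of the others were detected, and in the third 31.6% and 35.4%. In the second 293T knockout library 5.26% of the valine rows and 40.1% of the others were detected. In the second H9 knockout library, by contrast, 84.2% of the valine rows and 64.6% of the others were detected. The second 293T knockout library had detected 139 rows in all, about as many as the third with 133, yet it held 3 valine rows against 11 in the third. These are counts of single libraries, with no test, and rows that share a mature sequence are not independent in them.

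**Figure D3:**
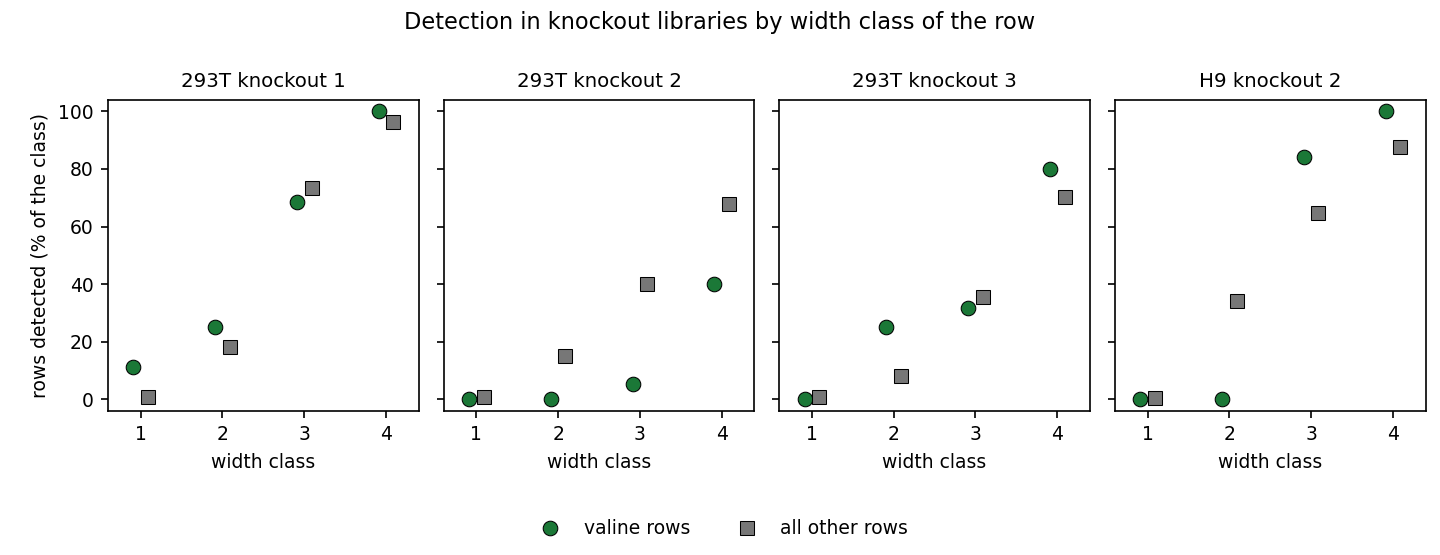
Each panel is 1 knockout library with any tRNA row. The horizontal axis gives the width class of the row, and the vertical axis the percentage of that class detected, with circles for valine rows and squares for all other rows. In class 3 the valine rows lie at 5.26% in the second 293T library and at 84.2% in the second H9 library, against 40.1% and 64.6% of the other rows.

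Alanine and cysteine tRNAs, which the study groups with valine, were rarer in the knockout libraries. Of 51 alanine rows, the 293T libraries held 41, 38 and 35 with FLAG-PUS7 and 11, 3 and 0 in the knockout, and in H9 41 and 39 with FLAG-PUS7 and 0 and 2 in the knockout. Of 37 cysteine rows, the counts were 31, 29 and 28 with FLAG-PUS7 and 1, 0 and 0 in the knockout in 293T. In H9 they were 28 and 26 with FLAG-PUS7 and 0 and 0 in the knockout. The alanine families Ala-AGC, Ala-CGC and Ala-TGC differed by 71.2, 90.0 and 67.5 points, and Cys-GCA by 77.8 points, each at an adjusted exact permutation p of 0.0221. The valine families, at 60.6, 62.3 and 40.5 points, had ranks 20, 18 and 43 by difference among the 57. If the first H9 knockout library was left out, Ala-TGC differed by 62.5 points and the other 3 of these alanine and cysteine families by the same amounts as before, while Val-AAC, Val-CAC and Val-TAC had ranks 27, 20 and 38. The width classes of the isotypes differ. Classes 1 and 2 held all 37 cysteine rows (24 and 13) and 40 of the 51 alanine rows (31 and 9), against 13 of the 37 valine rows. Within class 3 the order of alanine and valine changed with the library. The 293T knockout libraries detected 90%, 30% and 0% of its 10 alanine rows, against 68.4%, 5.26% and 31.6% of its valine rows. The second H9 knockout library detected 20% and 84.2%. No test was made of valine against alanine or cysteine.

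Between the lines, no valine family passed the test of a difference in effect. The FLAG-PUS7 minus knockout difference was 66.7 points in 293T and 54.5 points in H9 for Val-AAC, 66.7 and 57.9 points for Val-CAC, and 23.8 and 57.1 points for Val-TAC. With the second H9 knockout library as the only H9 knockout, the H9 values were 18.2, 31.6 and 35.7 points. The effect in H9 minus that in 293T was -12.1 points for Val-AAC (exact permutation of line labels within genotype, p = 0.8), -8.77 points for Val-CAC (p = 0.73) and 33.3 points for Val-TAC (p = 0.3). Each of these had an adjusted p of 1 over the 57 families, of which 0% were called and 0 had an unadjusted p under 0.05. The smallest possible p was 0.01, and what size of difference these libraries could have shown was not tested. Without the first H9 knockout library the effect in H9 minus that in 293T was -48.5 points for Val-AAC, -35.1 for Val-CAC and 11.9 for Val-TAC (exact permutation, p = 0.25, 0.275 and 0.75). Without the second it was 24.2 points for Val-AAC and 17.5 points for Val-CAC, the opposite sign, and 54.8 points for Val-TAC.

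The peak lists, deposited for FLAG-PUS7 libraries only, gave a second readout. Their names say that tRNA was left out, yet they hold peaks at tRNA genes, so a valine gene without a peak may have been removed from them, and ranks and shares hold only within what was kept. Of the 28 valine tRNA genes in RefSeq, 4 lay under a peak in at least 1 list: TRV-CAC3-1, TRV-CAC1-2, TRV-CAC1-3 and TRV-AAC3-1. Signal is the authors' value for each peak and is not scaled for depth, so lists are not compared by test. The 4 TRV pseudogenes in RefSeq, TRV-CAC11-2 among them, had no peak.

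TRV-CAC3-1 (chromosome 19, 4724635 to 4724707) lay under a peak from 4724401 to 4724800 on the minus strand in all 5 lists. The 293T lists gave it a signal of 634, 923.5 and 675.5, and the H9 lists 416 and 500.5. It had rank 3 in the first 293T list and rank 1 in every other list. The authors' p-value ranged from 6.12e-13 in the second 293T list to 0.00558 in the first H9 list. In the tRNA tables the row TRV-CAC3-1, in width class 4, was detected in all 5 FLAG-PUS7 libraries, in the first 293T and second H9 knockout libraries, and not in the other 3. No peak list of a knockout library was used here, so the peak cannot be set against the mock pull-down.

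The other 3 genes had low signals. TRV-CAC1-2 (chromosome 5, 181097070 to 181097142) had 16 in the second 293T list and 7 and 11 in the H9 lists. TRV-CAC1-3 (chromosome 5, 181102253 to 181102325) had 14 in the second 293T list and 4 and 6 in the H9 lists. TRV-AAC3-1 (chromosome 6, 27650928 to 27651000) had 18 and 17 in the first and second 293T lists and 9 in the first H9 list. In the 293T lists these signals were under the list's median of 20 or 28, and in the first H9 list they were above its median of 3. In the second H9 list TRV-CAC1-2 equalled the median of 11 and TRV-CAC1-3 was below it. TRV-CAC1-2 and TRV-CAC1-3 are copies of 1 mature sequence, whose other copies had no peak. Peaks at valine genes carried 14.4%, 22.0% and 26.5% of the signal summed over bins in the 293T lists, and 4.71% and 16.0% in the H9 lists. The peak over TRV-CAC3-1 by itself carried 14.2%, 21.5% and 26.5% in 293T and 4.60% and 15.7% in H9, which is nearly all of these shares. That peak spans 400 bases, the gene 73, and the gene lies in LOC105372250. Its signal was not divided between the tRNA gene and the sequence around it. Behind the shares stood 2, 4 and 1 peaks in the 293T lists, and 4 and 3 in the H9 lists, out of 120, 85 and 39 in 293T and 1605 and 199 in H9.

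**Figure D4:**
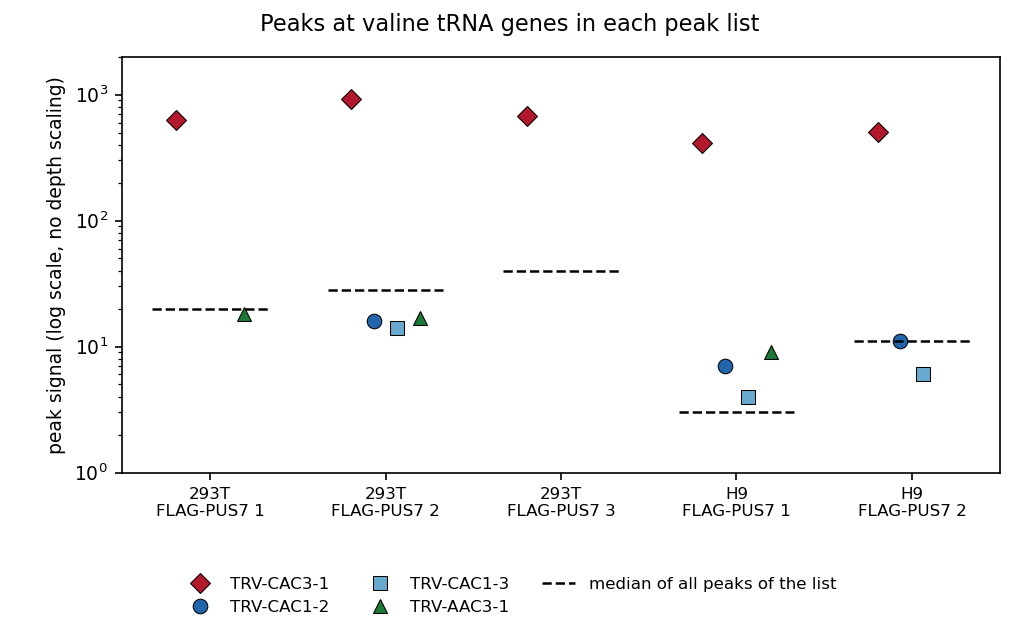
The vertical axis gives the authors' peak signal on a log scale at the 4 valine tRNA genes with a peak, for the 5 FLAG-PUS7 lists, and dashed lines give the median signal of all peaks of a list. TRV-CAC3-1 lies between 416 and 923.5 in all lists, and the other genes lie between 4 and 18 where they have a peak.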

How the data were processed

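Per the labels' protocols, cells were irradiated at 254 nm with 200 mJ/cm2, RNA was trimmed with RNase I, pulled down on anti-FLAG beads and read for 50 cycles. The submitters' processing notes name Bowtie, SAMtools, bedtools and hg38, without versions or roles. The tRNA tables the authors deposited hold level numbers, so count tests were not run. The peak lists the authors deposited give a signal and a p-value per peak, in bins of 200 bases. The sources used here name no peak caller. Detection was read in Python 3.11.15 with pandas 2.3.3 and numpy 2.4.6, families were tested by exact permutation with a threshold of 0.05, and the code was tested on simulated data. A peak was at a gene when they shared at least 1 base. The valine rows, the lists and detection as the readout were chosen with earlier results of these data known. Named are every valine family, the rows at each end of knockout detection, rows missing from some FLAG-PUS7 libraries and genes with a peak. The rows named among those in 1 to 3 knockout libraries, the rows detected nowhere, the TRV-AAC1 and TRV-CAC1 groups and TRV-CAC5-1 fall outside that rule and were named after their values were seen. The labels do not say whether replicates were grown apart, so the p-values cover no more than the spread between these libraries, which may be technical.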

Additional observations from a re-analysis of the deposited data

How the results depend on the processing

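The difference of the 3 valine families kept its direction under all alternatives run. Val-AAC and Val-CAC stayed past the threshold with RefSeq tRNA genes only, with numbered rows only, with groups of copies joined, with and without the first H9 knockout library (both chosen after the data were seen), and with the first level above the lowest read as not detected. Val-TAC passed with that reading (44.0 points, exact permutation test, adjusted p = 0.0226) and with lines pooled (37.1 points, adjusted p = 0.0481). Same-numbered FLAG-PUS7 and knockout libraries had correlations across rows from -0.0245 to 0.0369, and differently numbered ones from -0.0430 to 0.0496. With 2 replicates per group, the H9 values (0.0341 and -0.0341) mirror each other by construction. Detection also varied little among FLAG-PUS7 libraries, so this check cannot exclude that libraries of the same number belong together. The main test did not take the numbers as pairs. With the replicate number as a block, no family can pass, since the smallest p of the 32 sign flips is 0.0625. Val-AAC then had 60.6 and Val-CAC 62.3 points (exact sign-flip permutation, adjusted p = 0.0810), 0 of 57 families were called instead of 45, and 0 valine rows had an unadjusted p under 0.05. With lines pooled, 6 valine rows passed by exact permutation (adjusted p = 0.0318), the same 6 found in no knockout library, and 13 had an unadjusted p under 0.05. Over all 513 rows that setting called 25% adjusted and 47% unadjusted, and the detection pattern of the 6 rows gives the smallest p by construction. Leaving out each library in turn moved Val-AAC between 42.4 and 78.8 points, Val-CAC between 49.1 and 75.4, Val-TAC between 29.8 and 51.2, the share of all valine rows between 43.5 and 71.8, the families called between 23 and 49, and the valine rows at an unadjusted p under 0.05 between 6 and 10. The lowest family count, 23, came when the first H9 FLAG-PUS7 library was left out and again when only the second was. The H9 minus 293T effect ranged from -48.5 to 24.2 points for Val-AAC, from -35.1 to 17.5 for Val-CAC and from 11.9 to 54.8 for Val-TAC. For Val-CAC it was 2.63 points without the second 293T knockout library. Of the 14 pairs of a list and a valine gene under a peak, all 14 peaks held the whole gene and 9 had an authors' p-value under 0.001. Depth is unknown, so that a row not detected in a knockout library may lie below what that library could show.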
